A study of Mus musculus with 10 samples.

Results

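Genes of the heat shock response and of the unfolded protein response (UPR) were followed in whole B16 tumors. The set was a named list of 32 genes, of which 31 were measured among 18194 genes in all. Hsp90ab1 was not analysed here. The members fall into 5 groups by the place and role of their products: ER folding (6), UPR transcription and ER-associated degradation (4), the ATF4 arm (8), cytosolic heat shock proteins and cochaperones (10 measured) and mitochondrial chaperones (3). B16 is a transplantable melanoma line of C57BL/6 origin. RNA of 10 tumors, all on the C57BL/6 background, was read on 1-colour Affymetrix 3′ arrays, 5 of them wild type and 5 Bach2-deficient. Bach2 is a repressor of transcription known from lymphocytes. The labels leave unstated the allele, the ages, whether host or tumor cells carried the deficiency, and whether each tumor had its own animal. P-values therefore reflect only how these samples spread, part of which may be technical. Whole tumors were mechanically dissociated before RNA extraction, so melanoma, immune and stromal RNA are mixed. In such samples fewer cells of a type and less RNA per cell cannot be told apart.

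Heat shock factors induce cytosolic chaperones when unfolded protein accumulates in the cytosol. The UPR does the corresponding work for the endoplasmic reticulum (ER) through 3 sensors. ATF6 is cleaved to a transcription factor, IRE1 (gene Ern1) splices Xbp1 RNA, and PERK (gene Eif2ak3) phosphorylates the initiation factor eIF2α, which favours translation of ATF4. ATF4 also answers amino acid shortage and other stresses, and it drives genes such as Asns, Trib3 and Chac1. Secretory lymphocytes, dendritic cells and tumor cells all use parts of these programmes.

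In Bach2-deficient tumors, 9 of the 31 measured genes rose and 3 fell, 12 together, where 28.7% of all genes did either. A gene is said to rise or fall at a limma adjusted p under 0.05 over all 18194 genes. Risen members made up 29.0% against 16.3% of all genes, and fallen members 9.68% against 12.4%. The median change of the members was 0.11 (log2, Bach2-deficient minus wild type), where that of all genes was -0.064. All genes include dim ones, whereas no member was among the dimmest 30%. Without the dimmest 30%, 2960 of 12736 genes rose and 2083 fell, with a median change of 0.0086. Under that filter 8 members rose, Hspa5 being lost, and 3 fell. The 9 risen genes of the main fit were Hspa5, Pdia3, Pdia6, Xbp1, Atf3, Hspa1a, Dnaja1, Dnajb1 and Bag3. The 3 fallen genes were Pdia4, Asns and Hspe1. The 5 groups did not move as blocks: rises and falls stood side by side among the ER folding genes and in the ATF4 arm, while the cytosolic group held 4 rises and 0 falls. Values of all 10 arrays lay apart between the genotypes for 8 members, 7 of them higher and 1 lower in Bach2-deficient tumors, where 11.2% and 7.67% of all genes did so.

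**Figure D1:**
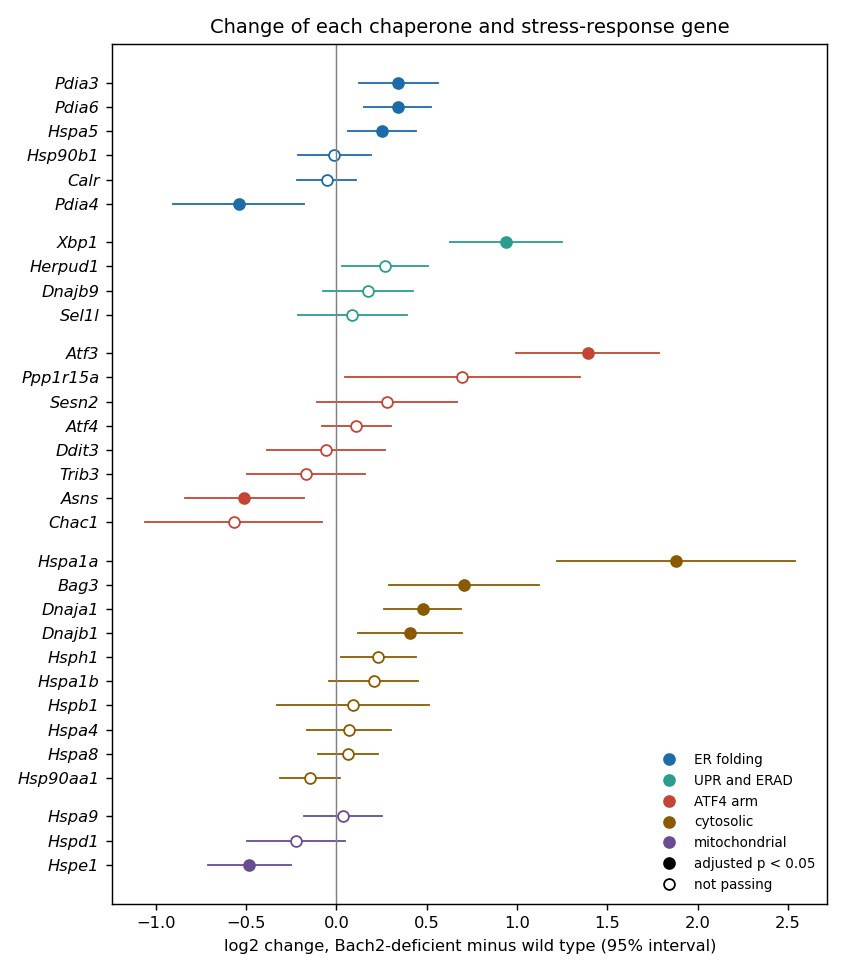
Log2 change (Bach2-deficient minus wild type, horizontal axis) of the 31 measured genes by group, with 95% intervals of the limma fit. Filled points passed the test. Hspa1a (1.88), Atf3 (1.39) and Xbp1 (0.94) lie farthest to the right, and Chac1 (-0.57), Pdia4 (-0.54), Asns (-0.51) and Hspe1 (-0.48) farthest to the left.

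Several features of the tumors moved with genotype on the same arrays. All 11 measured T cell markers and 10 of 11 macrophage and monocyte markers rose, and the mean of the T cell list ran from 6.14 to 7.67 in wild type and from 9.27 to 10.6 in Bach2-deficient tumors. Of 14 melanocyte markers 6 fell, and their mean ran from 11.6 to 11.8 in wild type and from 10.9 to 11.6 in Bach2-deficient tumors. Red cell markers fell for 3 of 4. The mean of the red cell list ran from 7.18 to 9.54 in wild type and from 4.17 to 5.79 in Bach2-deficient tumors. Of 16 immediate early genes that tissue dissociation can induce, 14 rose, with means from 9.26 to 9.73 in wild type and from 10.05 to 10.9 in Bach2-deficient tumors. Poly-A spike controls, bacterial RNAs added before labelling, differed by -2.09, all Bach2-deficient arrays being lower (exact permutation p = 0.00794, which is the floor with n = 5 each). Hybridization controls, added after labelling, also lay apart (-0.64, exact p = 0.00794). The 3′ minus 5′ signal of β-actin, a measure of RNA integrity, differed by -0.26 (exact p = 0.0556, n = 5 each), and that of Gapdh was 0.59 in both groups. Xist, a transcript of the inactive X of females, was high in all 5 wild-type tumors and in Bach2-deficient replicate 2, and low in the other Bach2-deficient tumors. Bach2 itself read 5.89 ± 0.55 against 6.96 ± 0.76 in wild type (SD, n = 5 each), a change of -1.07 with a limma adjusted p of 0.0551. All 3 Bach2 probe sets were lower in the Bach2-deficient group, and 1 of them fell (-1.05, adjusted p = 0.0382 over all probe sets). With Xist, high or low, as a second factor (the Xist term), which leaves Bach2-deficient replicate 2 to carry the genotype among Xist-high tumors, 2 members rose and 0 fell. With the melanocyte mean as a covariate, 0 rose and 0 fell, as against 19 rises and 10 falls over all genes. Only Bach2-deficient replicate 1 reached the wild-type range of that mean, so this fit can hardly tell it from genotype. The SE of Xbp1, for example, was 0.14 without the covariate and 0.22 with it. A call lost in this fit therefore does not show that melanocyte content made the change. The part of cell composition, sex, dissociation, labelling and hybridization in the changes below was not tested beyond these fits.

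**Figure D2:**
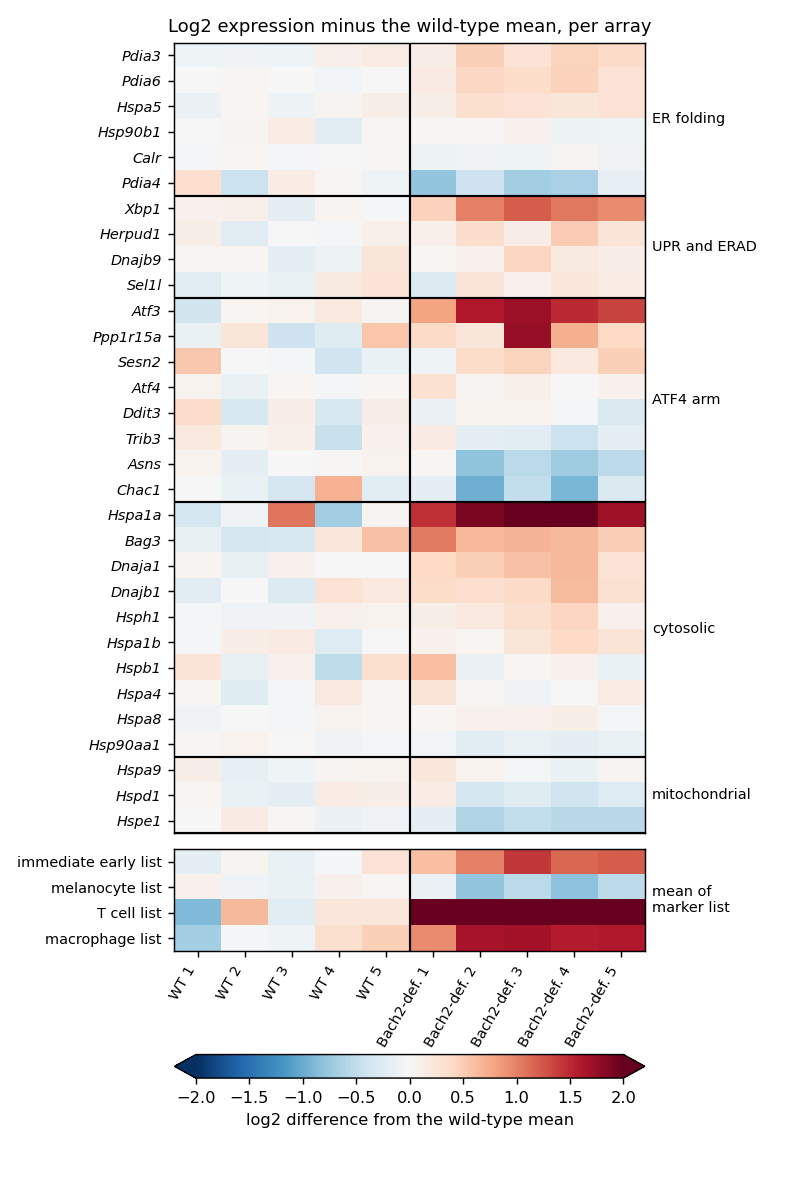
Log2 expression of the 31 genes on each of the 10 arrays (columns) minus the wild-type mean of the gene, with the means of 4 marker lists below on the same scale, which is capped at 2 either way. Bach2-deficient replicate 1 is paler than replicates 2 to 4 for Xbp1, Atf3, Asns and Hspe1, and in the melanocyte list.

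Bach2-deficient replicate 1 stood closest to wild type. For 8 of the 12 genes that passed, it was the Bach2-deficient tumor nearest the wild-type mean, and for the other 4 it was replicate 5. Replicate 1 also had the highest melanocyte mean (11.6) and the lowest T cell (9.27), macrophage (11.0) and immediate early (10.05) means of its group. Without it 9 members rose and 3 fell, with Pdia4 lost and Hspd1 gained among the falls. With each of the other arrays left out in turn the counts ran from 6 to 9 rises and from 1 to 3 falls. Only 1 member fell without wild-type replicate 1 or without Bach2-deficient replicate 2, 3 or 4.

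Within the ER, chaperones and disulfide isomerases split. Hspa5 encodes BiP, the HSP70 of the ER lumen and the standard readout of the UPR. It read 12.18, 12.34, 12.21, 12.37 and 12.42 in wild-type replicates 1 to 5 and 12.42, 12.62, 12.60, 12.55 and 12.60 in Bach2-deficient replicates 1 to 5. Its rise was 0.25 (SE 0.085, 1.19-fold, limma adjusted p = 0.0475), and the groups touch at wild-type replicate 5 and Bach2-deficient replicate 1. The call lies at the threshold. It held without wild-type replicate 5 or Bach2-deficient replicate 1 and was lost without any of the other 8 arrays (changes 0.22 to 0.29, adjusted p up to 0.112). Array median centring (adjusted p = 0.0791), a repeat of quantile normalization (0.0586), dropping the dimmest 30% of genes (0.0520) and averaging its 3 probe sets (0.0881) each ended it too.

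Pdia3 and Pdia6, protein disulfide isomerases, rose by similar amounts. Pdia3, which acts with calreticulin on glycoproteins and in MHC class I loading, read 11.98, 12.002, 11.99, 12.17 and 12.21 in wild type and 12.21, 12.55, 12.34, 12.51 and 12.46 in Bach2-deficient tumors. The change was 0.34 (SE 0.098, 1.27-fold, limma adjusted p = 0.0257), with replicate 1 of the deficient group just below the highest wild-type tumor. It did not pass without wild-type replicate 1, 2 or 3 or without Bach2-deficient replicate 2, 4 or 5 (changes 0.31 to 0.39 over all leave-outs, adjusted p up to 0.0710), nor on averaging its probe sets (0.13, adjusted p = 0.622). The dimmer Pdia3 probe set changed by -0.089 (limma adjusted p = 0.854 over all probe sets). Pdia6 read 9.03, 9.05, 9.02, 8.96 and 9.01 in wild type and 9.17, 9.43, 9.38, 9.48 and 9.30 in Bach2-deficient tumors. The wild-type tumors were nearly level (SD 0.035) and all deficient tumors lay above them. Its rise was 0.34 (SE 0.084, 1.26-fold, adjusted p = 0.0134), kept with each array left out and lost after repeated quantile normalization (0.22, adjusted p = 0.0962). A second, dimmer Pdia6 probe set also rose (1.24, adjusted p = 0.0414 over all probe sets).

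Pdia4, another isomerase of the same family, moved the other way. It read 10.55, 9.79, 10.36, 10.26 and 10.13 in wild type and 9.44, 9.80, 9.53, 9.57 and 10.05 in Bach2-deficient tumors. Wild-type replicate 2 lay inside the range of the deficient group, and the fall was -0.54 (SE 0.16, 1.45-fold, limma adjusted p = 0.0319). The call was lost on leaving out wild-type replicate 1, 3 or 4, or any deficient replicate but the fifth (changes -0.65 to -0.46 over all leave-outs, adjusted p up to 0.0747). Hsp90b1, the ER form of HSP90 (GRP94), and Calr, the lectin chaperone calreticulin, did not pass. Hsp90b1 was 12.03 ± 0.13 in wild type and 12.02 ± 0.083 in Bach2-deficient tumors (SD, n = 5 each), with a 95% interval of the change from -0.21 to 0.19. Calr was 12.96 ± 0.039 and 12.90 ± 0.060, with an interval from -0.22 to 0.11. For both, the interval leaves out a change as large as that of Pdia3 or Pdia6.

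The ER members also differ from one another in their promoters, which were searched over 250 bases before to 50 after the gene starts (RefSeq sequences, GRCm38.p6). Of the 31 measured members 28 had such a window. The ER stress response element, bound by ATF6 with NF-Y, was searched on both strands as CCAAT and CCACG with any 9 bases between them. It was found in windows of 4 members, Hspa5, Pdia6, Hsp90b1 and Calr, and in 0.119% of all 32851 windows. The sites are shown because, among these genes, Hspa5 and Pdia6 passed while Calr and Hsp90b1 did not. Their changes were not tested against one another. Capitals mark the match, and each run reads 5′ to 3′ on the strand of the gene. The run of Hspa5 lies at chr2:34772013-34772055 (plus strand), that of Pdia6 at chr12:17266479-17266521 (plus) and that of Calr at chr8:84847063-84847105 (minus, element in reverse orientation). The 148 bases of Hsp90b1 at chr10:86705521-86705668 (minus) hold 2 matches, the first forward and the last reverse.
Hspa5: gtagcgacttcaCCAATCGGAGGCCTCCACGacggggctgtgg
Pdia6: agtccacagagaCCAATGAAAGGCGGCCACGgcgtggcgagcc
Calr: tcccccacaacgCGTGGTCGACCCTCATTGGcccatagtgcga
Hsp90b1: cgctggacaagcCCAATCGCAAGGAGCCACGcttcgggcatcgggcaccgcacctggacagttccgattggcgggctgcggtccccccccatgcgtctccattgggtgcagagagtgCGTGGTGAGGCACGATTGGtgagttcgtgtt
The first pair rose by 0.25 and 0.34, while Calr (-0.053) and Hsp90b1 (-0.011) did not pass. The match begins 65 bases before the start in Hspa5, 98 in Pdia6 and 162 in Calr. A match describes letters and was not measured as a bound site.

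Xbp1, the transcription factor spliced by IRE1, had the largest change and the smallest adjusted p of the 10 ER members. It read 9.32, 9.32, 9.02, 9.27 and 9.18 in wild type and 9.68, 10.23, 10.44, 10.28 and 10.17 in Bach2-deficient tumors. All deficient tumors lay above all wild-type tumors, and the rise was 0.94 (SE 0.14, 1.92-fold, 95% interval 0.63 to 1.25, limma adjusted p = 0.00119). All 4 of its probe sets rose, by 0.76 to 1.08. These values count total Xbp1 RNA and say nothing of splicing. Xbp1 kept its call without each array (0.87 to 1.06) and with the Xist term (1.01, adjusted p = 0.0453), and lost it with the melanocyte covariate (0.59, adjusted p = 0.321). Prdm1, which marks plasma cells and also effector T cells, was the single gene of 10 B and plasma cell markers that rose (3.37). The mean of that list ran from 6.26 to 7.36 in wild type and from 5.81 to 8.68 in Bach2-deficient tumors.

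The 3 genes of ER-associated degradation did not pass. Herpud1, a scaffold of the degradation complex, was 9.25 ± 0.13 in wild type and 9.52 ± 0.17 in Bach2-deficient tumors (SD, n = 5 each; change 0.27, limma adjusted p = 0.0848). It passed with array weights (0.33, adjusted p = 0.0406) and on averaging its probe sets (0.29, adjusted p = 0.0447). Dnajb9, the BiP cochaperone ERdj4 and a target of XBP1, was 10.95 ± 0.17 and 11.12 ± 0.16 (change 0.17, adjusted p = 0.270). Sel1l, the adaptor of the HRD1 ubiquitin ligase, was 11.14 ± 0.21 and 11.22 ± 0.21 (change 0.086, adjusted p = 0.658). Its probe sets disagreed in size: all 5 were higher in Bach2-deficient tumors, from 0.026 to 1.14, and 1 of them rose. As their mean Sel1l passed (0.53, adjusted p = 0.0418).

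Hspa5 and Xbp1 were also compared within each array, which removes a shift common to all genes of the array. A shift that varies with signal level can remain. The level offset between probe sets has no meaning of its own and only its difference between genotypes was tested. Hspa5 minus Xbp1 was 2.87, 3.02, 3.19, 3.09 and 3.24 in wild type and 2.74, 2.39, 2.16, 2.27 and 2.43 in Bach2-deficient tumors. All deficient tumors lay below all wild-type tumors, with a group difference of -0.68 (exact 2-sided permutation p = 0.00794, adjusted p = 0.0317 over 8 pairs). Without wild-type replicate 1, 2 or 3 it did not pass (adjusted p = 0.0635), with differences of -0.74, -0.70 and -0.66. Few splits remain with 1 array left out, so the exact p moves in coarse steps. The measured rise of Xbp1 was thus larger than that of Hspa5. Probe sets differ in affinity, so the sizes cannot be matched exactly.

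**Figure D3:**
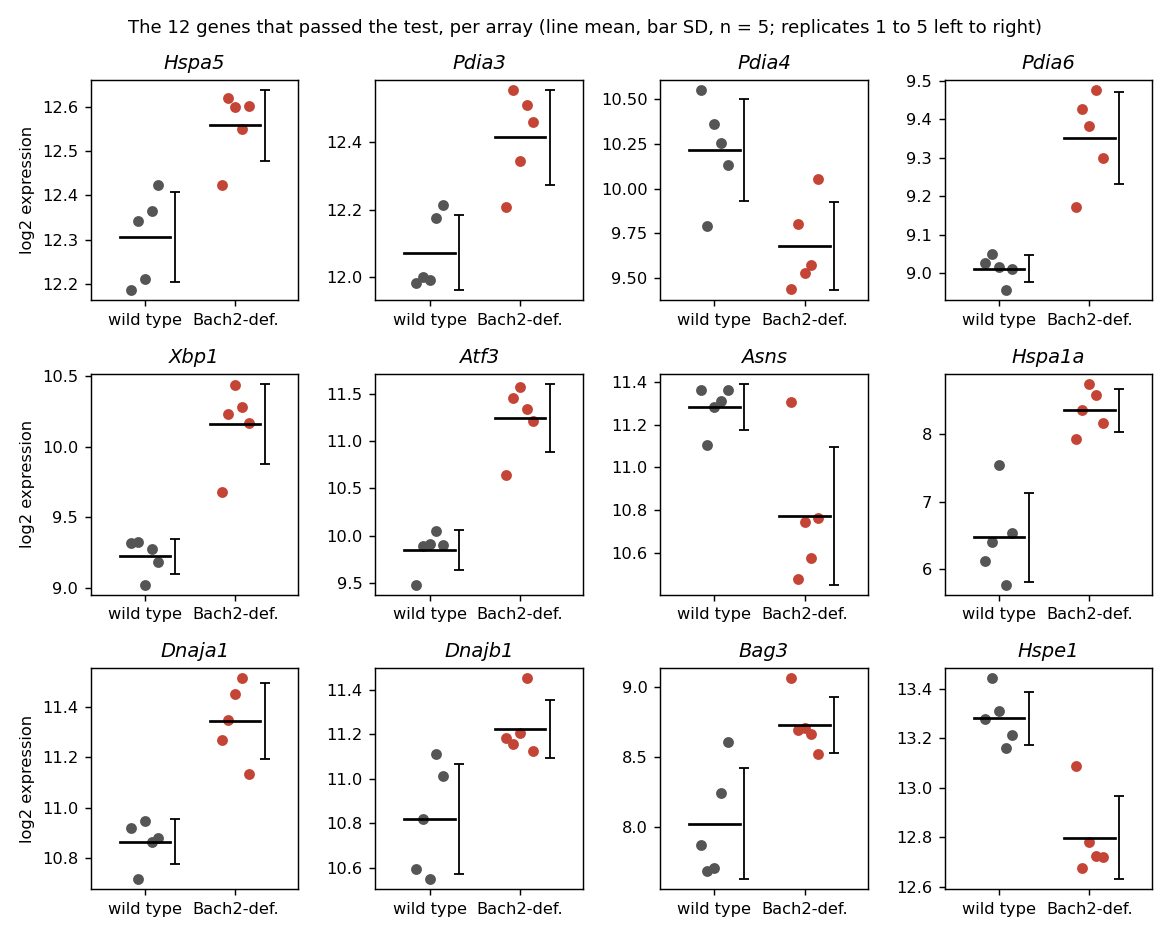
Log2 expression (vertical axes, not starting at 0) of the 12 genes that passed, 1 point per tumor, with group means and SD (n = 5 each). Xbp1, Atf3, Hspa1a, Pdia6, Dnaja1 and Dnajb1 do not overlap upward and Hspe1 does not overlap downward. In Hspe1, Asns and Xbp1 Bach2-deficient replicate 1 sits nearest to wild type.

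In the ATF4 arm Atf3 rose and Asns fell, while the other 6 members, Atf4 among them, did not pass. Atf3, a stress and immediate early transcription factor also induced in activated myeloid cells, read 9.48, 9.90, 9.91, 10.05 and 9.90 in wild type. In Bach2-deficient tumors it read 10.64, 11.45, 11.57, 11.34 and 11.21. The groups were far apart, and the rise was 1.39 (SE 0.18, 2.62-fold, limma adjusted p = 0.000580). It kept its call with each array left out (1.30 to 1.54) and with the Xist term (1.60, adjusted p = 0.0232), and lost it with the melanocyte covariate (0.84, adjusted p = 0.234). It moved with the immediate early list, in which Btg2 rose by 2.31 and Socs3 by 2.07.

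Asns encodes asparagine synthetase, a classic target of ATF4. It read 11.36, 11.10, 11.28, 11.31 and 11.36 in wild type and 11.31, 10.48, 10.74, 10.57 and 10.77 in Bach2-deficient tumors. Deficient replicate 1 stood among the wild-type values and the other 4 below all of them, with a fall of -0.51 (SE 0.15, 1.42-fold, limma adjusted p = 0.0278). The call was lost on leaving out wild-type replicate 1 or 5, or any deficient replicate but the first (changes -0.64 to -0.44 over all leave-outs, adjusted p up to 0.0723). With the melanocyte covariate the value was 0.086 (adjusted p = 0.834). With the Xist term it was -0.81 (adjusted p = 0.0754).

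Atf4 was 12.08 ± 0.079 in wild type and 12.19 ± 0.11 in Bach2-deficient tumors (SD, n = 5 each; change 0.11, 95% interval -0.082 to 0.30, limma adjusted p = 0.360). ATF4 protein is set mainly by translation, which an array does not read. A dimmer _x_at Atf4 probe set fell (-0.40, adjusted p = 0.0355), so the probe sets disagree. Ddit3, which encodes the pro-apoptotic factor CHOP, changed by -0.058 (interval -0.38 to 0.27). Trib3, a pseudokinase that restrains ATF4, changed by -0.17 (adjusted p = 0.405), and its dimmer probe set by 0.17 (limma adjusted p = 0.495 over all probe sets). Chac1, a glutathione-degrading enzyme, read 8.18, 8.06, 7.85, 8.88 and 7.96 in wild type and 7.99, 7.21, 7.70, 7.28 and 7.90 in Bach2-deficient tumors (change -0.57, adjusted p = 0.0792). Both array weights (-0.68, adjusted p = 0.0355) and a repeat of quantile normalization (-0.69, adjusted p = 0.0358) brought it past the test.

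Ppp1r15a encodes GADD34, which directs the phosphatase that reverses eIF2α phosphorylation. It read 8.06, 8.44, 7.79, 7.96 and 8.76 in wild type and 8.59, 8.45, 9.95, 8.91 and 8.60 in Bach2-deficient tumors. Deficient replicate 3 was far above the rest, replicate 4 just above wild type and the other 3 within the wild-type range (change 0.70, 95% interval 0.046 to 1.35, limma adjusted p = 0.100). That tumor also had the highest immediate early mean of all 10, at 10.9. Sesn2, a stress-induced inhibitor of mTORC1, changed by 0.28 (adjusted p = 0.248). Its dimmer probe set rose by 0.65 (adjusted p = 0.0432).

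Within arrays, Asns minus Atf4 was -0.79, -0.84, -0.83, -0.75 and -0.76 in wild type and -1.07, -1.65, -1.44, -1.51 and -1.40 in Bach2-deficient tumors. All deficient tumors lay below the narrow wild-type range, by -0.62 on average (exact permutation p = 0.00794, adjusted p = 0.0317 over 8 pairs). It too missed the threshold without wild-type replicate 1, 2 or 3 (adjusted p = 0.0635), where few splits remain. The differences there were -0.62, -0.63 and -0.63. As the mean of probe sets the difference was -0.41 and did not pass (adjusted p = 0.106). Trib3 minus Atf4 differed by -0.28 (exact p = 0.0476, adjusted p = 0.0952), and by 0.13 as the mean of probe sets (adjusted p = 0.455). Without wild-type replicate 4 it passed (-0.39, adjusted p = 0.0423). Ddit3 minus Atf4 differed by -0.17 (exact p = 0.262, adjusted p = 0.327).

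The C/EBP-ATF element, through which ATF4 acts with a C/EBP partner, was searched as TGATGNAA on both strands. It was found in windows of 5 members, Asns, Atf3, Chac1, Herpud1 and Trib3, and in 3.97% of all windows. The sites of 4 are shown because they stand before a gene that fell, a gene that rose and a pair that did not pass. Capitals mark the match, and the run of Asns holds it forward while the others hold it in reverse. The runs lie at chr6:7693213-7693244 (minus strand), chr1:191183424-191183455 (minus), chr2:119351037-119351068 (plus) and chr8:94386305-94386336 (plus), in the order shown.
Asns: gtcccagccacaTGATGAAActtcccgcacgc
Atf3: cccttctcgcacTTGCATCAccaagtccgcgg
Chac1: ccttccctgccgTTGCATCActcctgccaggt
Herpud1: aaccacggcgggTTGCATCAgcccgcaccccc
Atf3, Chac1 and Herpud1 share the 8 letters of the match, and their changes were 1.39, -0.57 and 0.27. The match begins 23 bases before the start of Asns and 110 before that of Atf3.

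Among the 10 cytosolic members, Hspa1a and 3 HSP70 cochaperones rose, 0 fell and 6 did not pass. Hspa1a, an HSP70 gene strongly induced by heat shock factor, read 6.12, 6.40, 7.54, 5.77 and 6.53 in wild type and 7.93, 8.35, 8.74, 8.57 and 8.17 in Bach2-deficient tumors. The wild-type tumors were scattered, with replicate 3 the highest, and all deficient tumors lay above them. Its rise of 1.88 (SE 0.30, 3.68-fold, 95% interval 1.22 to 2.54, limma adjusted p = 0.00150) was the largest of the 31 genes. It stayed called without each array (1.71 to 2.15). It did not pass with the Xist term (1.88, adjusted p = 0.0640) or the melanocyte covariate (1.14, adjusted p = 0.366).

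Hspa1b is a near-identical neighbour of Hspa1a, and the array cannot be relied on to tell their RNAs apart. The 3 Hspa1b probe sets disagreed. The brightest, which stands for the gene, was 12.60 ± 0.17 in wild type and 12.81 ± 0.15 in Bach2-deficient tumors (SD, n = 5 each; change 0.21, limma adjusted p = 0.192). A dimmer one rose by 1.24 (adjusted p = 0.0295) and the third, an _x_at probe set, changed by 1.02 (adjusted p = 0.0624). As the mean of the 3 Hspa1b passed (0.82, adjusted p = 0.0336).

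The HSP70 cochaperones Dnaja1, Dnajb1 and Bag3 rose. Dnaja1, a J-domain protein that delivers substrates to HSP70, read 10.92, 10.72, 10.95, 10.86 and 10.88 in wild type and 11.27, 11.35, 11.45, 11.51 and 11.13 in Bach2-deficient tumors. The groups did not overlap, and the rise was 0.48 (SE 0.097, 1.39-fold, limma adjusted p = 0.00513). It held without each array (0.43 to 0.53), and the mean of its 3 probe sets changed by 0.31 (adjusted p = 0.0532).

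Dnajb1 encodes HSP40. It read 10.59, 10.82, 10.55, 11.11 and 11.01 in wild type and 11.18, 11.15, 11.21, 11.45 and 11.12 in Bach2-deficient tumors. The deficient tumors lay just above the highest wild-type tumor, and the rise was 0.41 (SE 0.13, 1.33-fold, limma adjusted p = 0.0387). The call was lost on leaving out wild-type replicate 1, 2 or 3, or any deficient replicate but the first (changes 0.34 to 0.48 over all leave-outs, adjusted p up to 0.0964). Array median centring (adjusted p = 0.0563), a repeat of quantile normalization (0.0581) and averaging its probe sets (0.17, adjusted p = 0.271) each ended it too. Its dimmer probe set pointed the other way (-0.058, limma adjusted p = 0.841 over all probe sets).

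Bag3, a nucleotide exchange factor of HSP70 that serves selective autophagy, read 7.87, 7.69, 7.71, 8.24 and 8.61 in wild type and 9.06, 8.69, 8.71, 8.67 and 8.52 in Bach2-deficient tumors. Wild-type replicate 5 reached into the deficient range, and deficient replicate 1 was the highest of all. The rise was 0.70 (SE 0.19, 1.63-fold, limma adjusted p = 0.0181), kept without each array (0.62 to 0.85). With the melanocyte covariate it was 1.11 (adjusted p = 0.206).

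The remaining cytosolic members did not pass. Hspa8, the constitutive HSC70, was 13.40 ± 0.055 in wild type and 13.46 ± 0.054 in Bach2-deficient tumors (SD, n = 5 each; 95% interval of the change -0.10 to 0.23). Hspa4, an HSP110-type exchange factor, changed by 0.071 (interval -0.16 to 0.30). Its 4 probe sets ran from -1.10 to 0.071, and as their mean it fell (-0.34, limma adjusted p = 0.0338), so its direction depends on the probe set. Hsph1, which encodes HSP105, read 12.60, 12.56, 12.55, 12.72 and 12.70 in wild type and 12.75, 12.82, 12.95, 13.06 and 12.72 in Bach2-deficient tumors. These groups lay apart by a small margin without passing (change 0.23, adjusted p = 0.0877). Hsph1 passed with trended robust moderation (adjusted p = 0.0335).

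Hsp90aa1, the inducible cytosolic HSP90, was 12.78 ± 0.051 in wild type and 12.63 ± 0.066 in Bach2-deficient tumors (SD, n = 5 each; change -0.15, limma adjusted p = 0.165). All 5 of its probe sets pointed down (-0.38 to -0.054), 1 of them fell, and the gene passed with trended robust moderation (adjusted p = 0.0435). Hspb1, the small heat shock protein HSP27, changed by 0.093 (interval -0.33 to 0.51).

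The mitochondrial group held 1 fall and 0 rises. Hspe1 encodes HSP10, the lid of the mitochondrial chaperonin. It read 13.28, 13.44, 13.31, 13.16 and 13.21 in wild type and 13.09, 12.68, 12.78, 12.72 and 12.72 in Bach2-deficient tumors. All deficient tumors lay below all wild-type tumors, and the fall was -0.48 (SE 0.10, 1.40-fold, limma adjusted p = 0.00678). A second probe set fell by -0.70 (adjusted p = 0.00310 over all probe sets). The call held without each array (-0.56 to -0.44) and was lost with the Xist term (-0.60, adjusted p = 0.0757) and the melanocyte covariate (-0.26, adjusted p = 0.549).

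Hspd1 encodes HSP60, the chaperonin that HSP10 closes. It read 11.97, 11.79, 11.76, 12.07 and 12.05 in wild type and 12.07, 11.57, 11.68, 11.52 and 11.67 in Bach2-deficient tumors. Replicates 2 to 5 of the deficient group lay below all wild-type tumors, while replicate 1 was level with the highest of them (change -0.22, 95% interval -0.50 to 0.048, limma adjusted p = 0.195). Without that tumor Hspd1 fell (-0.32, adjusted p = 0.0383). Hspa9, the mitochondrial HSP70 (mortalin), changed by 0.036 (interval -0.18 to 0.25).

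Hspd1 and Hspe1 are neighbours on chromosome 1 that are transcribed away from each other, and their promoter windows overlap. The heat shock element was searched on both strands as GAA, TTC and GAA with any 2 bases between neighbours. It was found in windows of 3 members, Hspd1, Hspe1 and Hsph1, and in 0.603% of all windows. The stretch at chr1:55088047-55088088 (GRCm38.p6) holds 2 overlapping matches that lie in both windows, and it is shown because it stands between the gene that fell and its partner. Capitals mark the matches, read on the strand of each gene (plus for Hspe1, minus for Hspd1).
Hspe1: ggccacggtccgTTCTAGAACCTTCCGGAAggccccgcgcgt
Hspd1: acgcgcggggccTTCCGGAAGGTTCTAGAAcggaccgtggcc
The first match begins 89 bases before the start of Hspe1 and 144 before that of Hspd1. Exact matches to these letters were not in the windows of Hspa1a, Dnaja1, Dnajb1 or Bag3, the cytosolic genes that rose. Elements with other letters or outside the windows were not searched, so this does not show that those genes lack one.

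HSP70 genes of the ER, the cytosol and the mitochondria were compared within arrays. Hspa5 minus Hspa8, the ER form against the constitutive cytosolic form, was -1.15, -1.06, -1.15, -1.10 and -1.01 in wild type and -1.02, -0.87, -0.89, -0.97 and -0.78 in Bach2-deficient tumors. Of the deficient tumors 4 lay above all wild-type tumors, with a group difference of 0.19 (exact permutation p = 0.0159, adjusted p = 0.0423 over 8 pairs). The difference was 0.10 after repeated quantile normalization (adjusted p = 0.0952) and 0.20 as the mean of probe sets (adjusted p = 0.178), so this call did not hold under either. It was also lost without wild-type replicate 1, 2 or 3, or deficient replicate 2, 3 or 5 (adjusted p = 0.0635 each). In these fits few splits remain, and the differences ran from 0.16 to 0.20. Hspa9 minus Hspa8, the mitochondrial against the cytosolic form, differed by -0.029 (exact p = 0.770). Hspa5 minus Hspa9 differed by 0.22 (exact p = 0.0952, adjusted p = 0.152), and by 0.30 without Bach2-deficient replicate 1 (adjusted p = 0.0317). Hspa1b minus Hspa8 differed by 0.14 (exact p = 0.286, adjusted p = 0.327), and by 0.81 as the mean of probe sets (adjusted p = 0.0317).

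**Figure D4:**
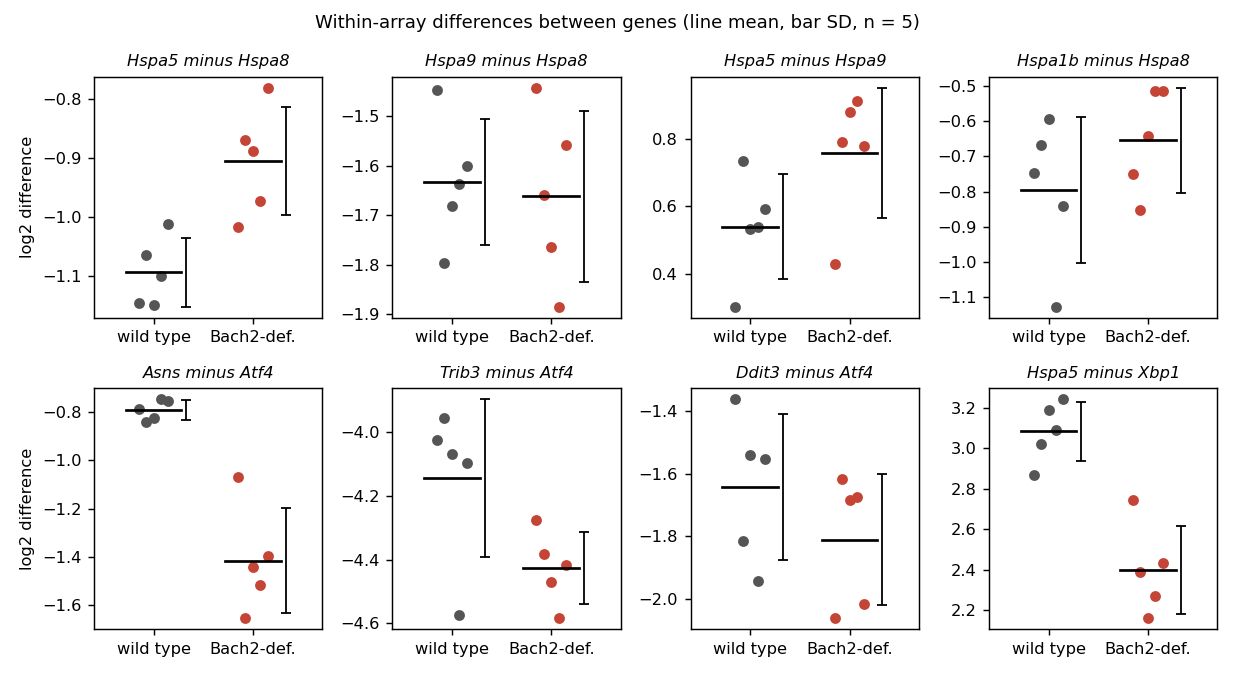
Within-array log2 differences between 2 genes (vertical axes, not starting at 0), 1 point per tumor, with group means and SD (n = 5 each). Asns minus Atf4 and Hspa5 minus Xbp1 are lower in every Bach2-deficient tumor than in any wild-type tumor, and the 2 genotypes overlap in the other 6 panels.

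Other genes of these pathways, 131 in 9 lists, were not members. Of 127 measured, 16 rose and 19 fell (12.6% and 14.96%), near the 16.3% and 12.4% of all genes, with a median change of -0.028. Among 8 UPR sensors and processing genes, 3 rose and 3 fell. Ern1, the sensor that splices Xbp1, rose by 1.11 (limma adjusted p = 0.00304) and Eif2ak3, the PERK kinase, by 0.74 (adjusted p = 0.00212). Creb3l2, a membrane-bound factor of secretory cells, fell (-1.06), as did Mbtps1 (-0.54), the site-1 protease that cleaves ATF6. A list of 9 other genes held eIF2α kinases, subunits of the exchange factor eIF2B and the phosphatase gene Ppp1r15b. In it 2 rose: Eif2ak2 (1.30), the interferon-inducible kinase PKR, and Ppp1r15b (0.27).

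Of 27 other ER folding and degradation genes, 5 rose and 3 fell. Ero1b, an ER oxidase, rose by 1.47 (limma adjusted p = 0.00421) and Edem2 by 0.77. The J-domain cochaperones of BiP Dnajc10 (-0.67, adjusted p = 0.000549) and Dnajc3 (-0.48) fell. Of 23 other ATF4 targets, 3 rose and 4 fell, with Cebpb (2.26) and Cebpg (0.60), both C/EBP factors, up and Atf5 (-0.89) and Shmt2 (-0.72), a mitochondrial serine enzyme, down. Cebpb is also a myeloid factor, and the macrophage list rose on the same arrays. Of 12 tRNA synthetase genes, 0 rose and 2 fell, Eprs (-0.51) and Yars (-0.36).

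Of 26 other cytosolic chaperone genes, 2 rose and 4 fell. Hspbp1 (0.61) and Chordc1 (0.32) rose, while Fkbp4 (-0.60), an HSP90 cochaperone, and Cryab (-0.45), the small heat shock protein αB-crystallin, fell. The heat shock factor list held 3 measured genes, Hsf2, Hsf4 and Hsbp1, of which Hsbp1 is not itself a factor. Of these and of 8 subunits of the cytosolic chaperonin TRiC, 0 passed, with medians of -0.16 and -0.14. Hsf2 was dim, with means of 3.89 in wild type and 3.74 in Bach2-deficient tumors. Hsf1, also on that list, was not analysed here, so its RNA was not tested. Of 11 other mitochondrial chaperones and proteases, 1 rose and 3 fell. The protease subunit Clpx rose by 0.48, its partner Clpp fell (-0.60), and the import motor gene Timm44 fell (-0.81).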

How the data were processed

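Log2 expression values were used as deposited by the authors, 1 column for each of 10 Affymetrix Mouse430_2 arrays. RMA and Partek made them, per the submitters' processing notes, with versions not given in the sources used here. Array medians ran from 5.80 to 5.88. No detection calls were used; precision rests on how many arrays there are. Of 45101 probe sets, 34958 had 1 gene symbol, 932 several and 9147 none, besides 64 controls. Each gene was read by its single-symbol probe set with the highest mean over all arrays (18194 genes).

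Genotype was the single factor of a linear model over all 10 arrays (limma 3.58.1, R 4.3.3; lmFit and eBayes, 2-sided), with Benjamini-Hochberg adjustment over all genes. Pairs of genes were compared within arrays by an exact permutation test, adjusted over 8 pairs (10 were listed, and 2 needed Hsp90ab1). Both scripts were tested on simulated data. Members, pathway and marker lists, pairs and alternatives were chosen with earlier results of these data known. All members are named, and of each other pathway list up to 2 called genes with the largest rise and up to 2 with the largest fall, and of each marker list up to 2 with the largest change. Marker lists not described above gave 1 rise and 3 falls of 10 fibroblast genes and 1 rise and 4 falls of 10 endothelial genes. The fibroblast rise was Thy1 (3.32). The labels give same-numbered samples of the groups only a shared number (correlation of their deviations 0.0062 to 0.32). Replicates 1 (0.32) and 3 (0.22) correlated best with their own number, and whether they shared more was not tested. Alternatives were scaling, a dim-gene filter, probe set averaging, moderation, array weights, the replicate number as a block, an Xist term (high above 9), a melanocyte covariate and leaving out each array. Promoter sequences were RefSeq's (GRCm38.p6), with exact matches on both strands.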

Additional observations from a re-analysis of the deposited data

Results flagged for a closer look

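In 8 of 78 groups of 5 tumors checked, 31 genes and 8 within-array pairs in each genotype, the highest or lowest value stood far from the rest (gap over range above 0.71). Chance gives about 1 in 20 such groups. Bach2-deficient replicate 1 was the high value for Hspe1 (13.09, next 12.78) and Hspd1 (12.07, next 11.68), which share a promoter window, and the low value for Hspa5 minus Hspa9 (0.4277, next 0.777). Bach2-deficient replicate 4 was the high value for Calr (13.01, next 12.89) and Dnajb1 (11.45, next 11.21). Wild-type replicate 4 was the low value for Trib3 (7.486, next 7.992) and hence for Trib3 minus Atf4 (-4.575, next -4.097). Wild-type replicate 1 was the low value for Atf3 (9.484, next 9.896), a tumor that also had the lowest T cell mean of all 10 (6.14).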

How the results depend on the processing

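The counts of 9 rises and 3 falls among members, and of 16 and 19 among the other pathway genes, moved by over 1.5 times with the Xist term (2, 0, 2 and 1) and with the melanocyte covariate (0 for all 4), where fewer genes passed over the whole array (1030 and 387 with the Xist term). They stayed within 1.5 times under 7 other settings: array median centring, repeated quantile normalization, the dim-gene filter, probe set means, trended robust moderation, array weights and the replicate block. With 1 array left out they ran from 6 to 9, 1 to 3, 12 to 18 and 14 to 26. The replicate block gave 8 rises and 2 falls, with Hspa5 and Pdia4 lost. Same-numbered tumors correlated best with each other for 2 of 5 numbers.

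Signs of changes turned with probe set means for Hsp90b1 (0.035), Atf4 (-0.13) and Hspa4 (-0.34). They turned with the Xist term for Hsp90b1 (0.017), Ddit3 (0.074) and Hspb1 (-0.12). With the melanocyte covariate they turned for Sel1l (-0.23), Trib3 (0.11), Hspd1 (0.23), Chac1 (0.17) and Asns (0.086), which had fallen. With repeated quantile normalization they turned for Hspb1 (-0.031) and Hspa9 (-0.015), and with array weights for Hspb1 (-0.0035). With 1 array left out they turned for Hsp90b1 (-0.063 to 0.025), Ddit3 (-0.14 to 0.030), Hspb1 (-0.036 to 0.17) and Hspa9 (-0.012 to 0.077). The cause was not tested.

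Within-array pairs, with 1 array left out, ran from 0.16 to 0.22 (Hspa5 minus Hspa8), -0.084 to 0.027 (Hspa9 minus Hspa8), 0.16 to 0.30 (Hspa5 minus Hspa9), 0.058 to 0.19 (Hspa1b minus Hspa8), -0.71 to -0.56 (Asns minus Atf4), -0.39 to -0.23 (Trib3 minus Atf4), -0.24 to -0.099 (Ddit3 minus Atf4) and -0.77 to -0.62 (Hspa5 minus Xbp1). Probe set means gave 0.20 for Hspa5 minus Hspa8, 0.81 for Hspa1b minus Hspa8, -0.41 for Asns minus Atf4 and 0.13 for Trib3 minus Atf4, and repeated quantile normalization gave 0.10 for Hspa5 minus Hspa8. As a replicate block, an exact sign-flip test of the 5 numbered pairs cannot go below 0.0625. Its differences are those of the unpaired test, 0.19, -0.62 and -0.68 for the 3 pairs called there, with an adjusted p of 0.10, which says nothing of stability. With 1 array left out, few splits remain, and calls of Asns minus Atf4 and Hspa5 minus Xbp1 were lost without wild-type replicate 1, 2 or 3 (adjusted p = 0.0635). Hspa5 minus Hspa8 was lost in 6 of 10 such fits, those and the ones without Bach2-deficient replicate 2, 3 or 5.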
